A study of Mus musculus with 2 samples.

Results

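The nuclear-encoded genes of the mitochondrial respiratory chain were taken from the deposited gene table by symbol: the Nduf, Sdh, Uqcr, Cox4 to Cox8 and Atp5 families. Genes whose symbols do not match the pattern, such as Cox4i1, Cox4i2, Ndufab1, Ndufa4l2 and Cyc1, are left out. The pattern found 82 of 33696 features, of which 37 belong to complex I, 4 to complex II, 8 to complex III, 16 to complex IV and 17 to complex V. The 13 protein-coding genes of mitochondrial DNA (mt- genes) were set beside them. Cells came from day 6 full-thickness wounds of 10 mm on the backs of wild-type male C57BL/6 mice, with 1 library from pooled aged animals (24 months) and 1 from pooled young animals (2 months). All cells of the digested wound were loaded on a droplet-based 3' single-cell assay, and the number of animals pooled is not given in the sources used here. The design sets wound cells of aged animals beside those of young animals.

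The respiratory chain passes electrons from NADH (complex I, NADH dehydrogenase) and succinate (complex II, succinate dehydrogenase) through complex III to cytochrome c, and complex IV passes them on to oxygen. Complexes I, III and IV pump protons, and complex V, the ATP synthase, uses the gradient to make ATP. Complexes I, III, IV and V are built from proteins of both genomes, whereas complex II is wholly nuclear-encoded. In a healing wound, neutrophils are known to live mainly from glycolysis, while fibroblasts and macrophages keep active mitochondria.

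Several complex IV subunits exist as a widely expressed and a tissue-restricted form, and the promoters of these pairs are shown first because the restricted forms are described by cell type in the results. The sequences are the 180 bases before the start of each gene on its own strand, 5′ to 3′, from RefSeq (build GRCm38.p6), and capitals mark each CG dinucleotide. Cox8a is the widely expressed form of subunit 8 (chr19:7217617-7217796, minus strand) and Cox8b its form of heart, skeletal muscle and brown fat (chr7:140900447-140900626, minus strand). Cox7a2 is the widely expressed form of subunit 7a (chr9:79759854-79760033, minus strand) and Cox7a1 its form of heart and skeletal muscle (chr7:30183991-30184170, plus strand).
Cox8a: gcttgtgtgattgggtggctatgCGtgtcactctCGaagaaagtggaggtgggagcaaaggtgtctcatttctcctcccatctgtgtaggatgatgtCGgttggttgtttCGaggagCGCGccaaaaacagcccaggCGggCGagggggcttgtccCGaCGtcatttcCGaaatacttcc
Cox8b: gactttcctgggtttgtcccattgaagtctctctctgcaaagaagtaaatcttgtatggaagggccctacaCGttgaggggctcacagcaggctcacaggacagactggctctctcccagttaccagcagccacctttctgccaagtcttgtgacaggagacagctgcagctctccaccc
Cox7a2: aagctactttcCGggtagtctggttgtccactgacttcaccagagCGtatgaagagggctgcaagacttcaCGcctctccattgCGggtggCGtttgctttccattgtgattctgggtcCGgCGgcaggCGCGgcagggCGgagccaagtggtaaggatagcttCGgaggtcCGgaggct
Cox7a1: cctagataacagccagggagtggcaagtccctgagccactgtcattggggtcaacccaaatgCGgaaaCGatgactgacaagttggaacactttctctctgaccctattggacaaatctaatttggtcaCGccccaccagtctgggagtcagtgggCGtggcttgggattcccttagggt
Cox8b had 1 CG in these 180 bases, the fewest of the 69 members found in the promoter table, and Cox7a1 had 4, against 11 in Cox8a and 12 in Cox7a2. The count did not separate restricted from wide forms in general: Ndufc2, Ndufs8, Uqcr10 and Atp5l had 3, and the restricted Cox6b2 and Cox7b2 had 7 and 8. Over those 69 members the median was 11 (quartiles 8 and 16), against a median of 4 (quartiles 1 and 12) over all 27025 genes of the table.

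Motifs of factors known to act on this gene family were counted on both strands from 250 bases before to 50 bases after each start. The NRF1 motif (GCGCA, any 1 base, then GCGC) was in 17 of 69 members (24.6%), against 5.19% of all 27025 genes. The ETS motif CCGGAAG, which GABP binds, was in 17 members (24.6%), against 9.93%. The YY1 motif AAGATGG was in 11 (15.9%, against 7.28%) and the oestrogen-related receptor motif AAGGTCA in 8 (11.6%, against 5.38%). The TATA box TATAAA was in 8 members (11.6%), against 15.7% of all genes. Cox8b was among the 8, but its match does not lie within the 180 bases shown above. Cox6a1, the widely expressed form of subunit 6a, is shown as the example that holds both of the first motifs (chr5:115348959-115349138, minus strand), with NRF1 and ETS matches in capitals. Its NRF1 matches lay 162 to 153 and 117 to 108 bases before the start, and its ETS match, which reads CTTCCGG on this strand, 16 to 10 bases before it.
Cox6a1: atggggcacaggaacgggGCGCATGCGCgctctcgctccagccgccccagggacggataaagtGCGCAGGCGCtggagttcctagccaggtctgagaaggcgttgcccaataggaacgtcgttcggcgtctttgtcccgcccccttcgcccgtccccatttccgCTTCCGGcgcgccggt
A match describes the letters of the window and is not evidence of binding in these cells.

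The aged library held 4379 barcodes and the young library 4932, and 4210 and 4661 cells were kept, with medians of 13776.5 and 15566 unique molecular identifiers (UMIs, each counting 1 captured RNA molecule). Median mt- shares were 0.903% of UMIs in the aged and 1.06% in the young library, and the libraries shared 3 cell barcodes. Cells were gated by marker genes of 16 cell types. Fibroblasts numbered 1469 in the aged and 1571 in the young library, macrophages/monocytes 993 and 638, and neutrophils 957 and 1410. The gates held their own markers: the 10 fibroblast markers summed to 62117 and 71102 UMIs per 1000000 (CPM) in aged and young fibroblasts, the 12 macrophage/monocyte markers to 9207 and 8639 CPM in aged and young macrophages, and the 12 neutrophil markers to 59995 and 91119 CPM in aged and young neutrophils. Neutrophil markers also reached 1540 CPM in aged and 2141 CPM in young macrophages, and 107 and 218 CPM in aged and young fibroblasts. The gate left 15.5% of aged cells (median 5453 UMIs) and 12.2% of young cells (median 11541 UMIs) without a type. Their part in the results was not tested.

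UMIs of each gene were summed over the cells of a library, or of a gate, and divided by all UMIs there, so that a level is in CPM. Intervals are 95% intervals and cover counting error only. With 1 library per age there is no replicate check and no test between ages, and a ratio compares these 2 libraries. All 82 members had at least 1 UMI, and 80 had at least 20 over both libraries. Cox7b2, a testis form, had 4 UMIs in the aged and 1 in the young library, and Cox8c, also a testis form, had 2 in each.

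Over all cells, the summed level of the 82 genes was 11017 CPM in the aged and 11050 CPM in the young library (aged over young 0.997, 0.994 to 0.999). The direction of this near-equal pair turned with the weighting of cells: a mean over cells gave 1.02. The mt- genes summed to 10947 CPM in the aged and 13125 CPM in the young library (aged over young 0.834, 0.832 to 0.836), and each of the 13 was lower in the aged library. Scalings from the gene-wise ratios of all genes put the libraries apart by -0.112 (TMM) and -0.101 (median of ratios) on the log2 scale over all cells, so ratios near 1 depend on the scaling. In place of equal totals, TMM would multiply every ratio below by 0.939 in fibroblasts, 0.881 in macrophages and 0.846 in neutrophils, and median-of-ratios scaling by 0.945, 0.873 and 0.859.

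The 3 large gates differed from that total. In fibroblasts the 82 genes summed to 11161 CPM in aged and 10784 CPM in young cells, with a ratio of 1.035 (1.032 to 1.038) that turned to 0.972 under TMM and 0.978 under median-of-ratios scaling. In macrophages/monocytes they summed to 12581 CPM in the aged and 14678 CPM in the young library (aged over young 0.857, 0.852 to 0.863). In neutrophils the sums were 3393 CPM in the aged and 3823 CPM in the young library (aged over young 0.888, 0.872 to 0.903). The multipliers of both scalings are below 1, so the last 2 ratios, already below 1, could not turn under them.

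The mt- genes were lower in the aged library in all 3 gates, with ratios of 0.818 (0.816 to 0.821) in fibroblasts, 0.846 (0.841 to 0.852) in macrophages and 0.836 (0.824 to 0.848) in neutrophils. Fibroblasts thus had 0.999 nuclear-encoded UMIs per mt- UMI in the aged and 0.790 in the young library, 1.26 times as many in the aged. Macrophages had 1.10 in the aged and 1.08 in the young library, a ratio of 1.01. This quotient lies within a library and does not depend on how the libraries were scaled. The 11 dissociation stress genes summed to 3480 CPM in aged and 4878 CPM in young fibroblasts (ratio 0.713), and to 3495 and 3515 CPM in aged and young macrophages (0.994). Their part in the result was not tested.

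**Figure D1:**
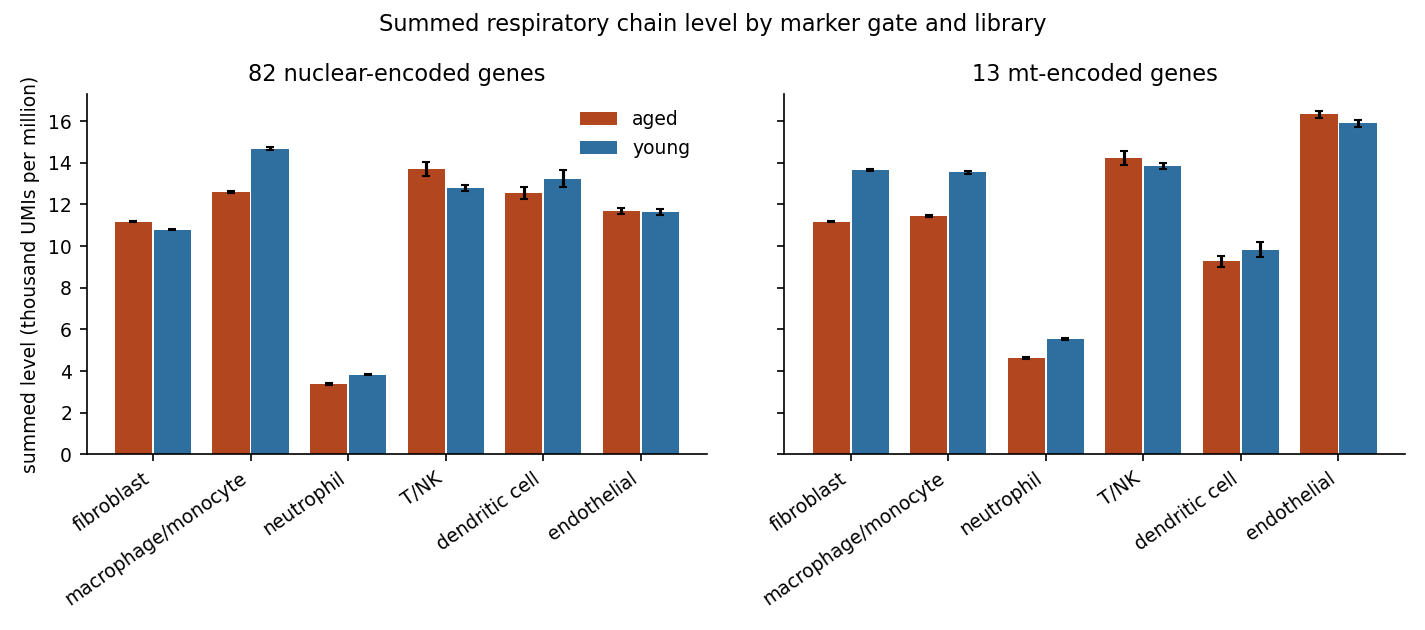
Summed level of the 82 nuclear-encoded genes (left) and the 13 mt- genes (right) in units of 1000 CPM, in 6 marker gates, with aged bars left of young bars and exact Poisson 95% intervals. The aged bar is lower than the young one in macrophages/monocytes and neutrophils in both panels, and in fibroblasts in the mt- panel.

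The smaller gates hold few cells and are given as values. In T/NK cells (38 aged, 312 young) the 82 genes summed to 13685 CPM in the aged and 12778 CPM in the young library (aged over young 1.07, 1.04 to 1.10). Weighting cells equally turned that direction, with means of 113.4 nuclear-encoded UMIs per 10000 in aged and 127.0 in young T/NK cells and medians of 104.6 and 123.8. In endothelial cells (47 and 49) the ratio was 1.005 (0.987 to 1.023), and in dendritic cells (34 and 19) 0.946 (0.911 to 0.984). The mt- ratios in these gates were 1.03, 1.03 and 0.943.

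Over all cells, UMIs per gene ranged within complex I, by the mean of both libraries, from Ndufs1 (26.9 CPM in the aged and 22.6 CPM in the young library) to Ndufb1 (192 and 240 CPM). In the aged library alone Ndufb4 (22.1 CPM) was lowest and Ndufa4 (216 CPM) highest. In complex II they ranged from Sdha (41.5 and 36.2 CPM) to Sdhb (70.3 and 62.8 CPM), and in complex III, again by the mean, from Uqcrc1 (48.3 and 45.9 CPM) to Uqcrh (262 and 286 CPM). Cox7c had the most UMIs of complex IV (509 and 532 CPM), and Cox8c the fewest over both libraries. In complex V they ranged from Atp5g3 (121 and 96.9 CPM) to Atp5e (374 and 447 CPM). A 3' assay counts each captured molecule once, and these values are not divided by length, so they order UMIs and not subunits.

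Measured per cell, the nuclear-encoded genes took a median of 103.7 UMIs per 10000 in aged and 96.7 in young fibroblasts, with quartiles of 82.5 and 130.1 in aged and 78.6 and 124.4 in young cells. Aged macrophages had a median of 120.6 (quartiles 94.7 and 150.5) and young macrophages 137.1 (106.7 and 175.6). The cell distributions of the ages overlapped over most of their range in both gates. Aged neutrophils had a median of 24.8 and young neutrophils 25.5. The mt- genes of neutrophils gave different answers by summary: medians were 15.6 in aged and 27.9 in young cells, but means were 51.3 and 48.8, so that the mean over cells put the ratio at 1.05 while the sum of UMIs put it at 0.836.

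Most single members differed little between the libraries. At least 1.5-fold is used below for a call, on members with at least 20 UMIs over both libraries in the gate. Over all cells no member of 80 was higher by that much, where 11% of all features were, and 1 was lower, where 10.5% were. That member was Cox8b. Of the 80, 48 were above 1 (median log2 ratio 0.07), where 12813 of 20121 features were (median 0.12). The count was 33 under TMM and 34 under median-of-ratios scaling. With at least 500 UMIs, no member of 78 was past 1.5-fold, against 5.05% of features higher and 5.08% lower.

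In fibroblasts 1 of 79 members was higher (Cox7a1), where 11.6% of features were, and 1 was lower (Cox8b), where 8.19% were. With at least 500 UMIs the counts were 0 higher and 0 lower of 77, where 4.9% and 3.25% of features were. The members' median log2 ratio was 0.13, against 0.09 over all 18277 features. Of 79 members 54 were above 1, where 11212 of the features were (46 members under TMM and 47 under median-of-ratios scaling). In macrophages none of 79 was higher, where 16.4% of features were, and 1 was lower (Cox6b2), where 6.92% were. At 500 UMIs or more none of 76 was past the fold, where 6.87% of features were higher and 2.13% lower. Over the 79 members with at least 20 UMIs the median was -0.18, against 0.21 over all 12956 features. Of 79 members 68 were below 1 (76 under each scaling), where 3741 of the features were without that scaling. The count past 1.5-fold was 7 under TMM and 9 under median-of-ratios scaling, all lower. In neutrophils 2 of 77 were higher (Ndufs3 and Cox7a1), where 21.6% of features were, and 3 were lower (Ndufb5, Ndufa11 and Cox7b), where 9.92% were. At 500 UMIs or more 0 of 39 were higher and 1 lower, where 14.4% and 5.18% of features were. The members' median in neutrophils was -0.20, against 0.19 over all 10707 features. Of 77 members 19 were above 1 (8 under each scaling), where 6923 of the features were without that scaling. The count past 1.5-fold was 20 under TMM and 19 under median-of-ratios scaling, all lower. The shares of all features under these scalings were not computed for either gate. The shares above are without them and cannot be set beside the scaled counts.

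**Figure D2:**
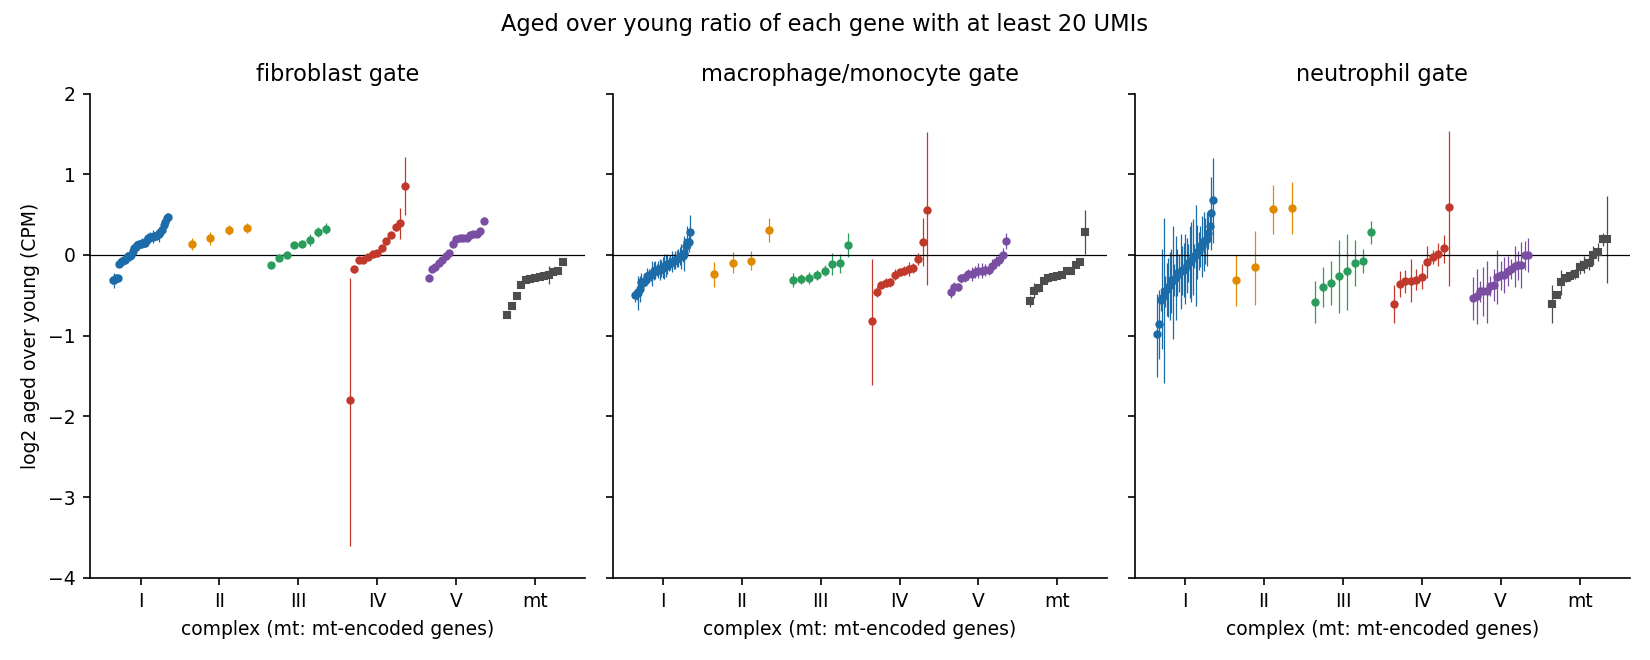
Log2 ratio of aged over young CPM for each gene with at least 20 UMIs in the gate, by complex (I to V) and for the mt- genes, with exact conditional 95% counting intervals. Points lie on both sides of the zero line within complexes I, III, IV and V in fibroblasts, all 4 of complex II lie above it, and most points lie below it in macrophages/monocytes.

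Complex I, which takes electrons from NADH, summed to 3555 CPM in aged and 3418 CPM in young fibroblasts (ratio 1.040, 1.034 to 1.046), a direction that turned under both scalings (0.977 and 0.982). In macrophages it summed to 3993 CPM in the aged and 4544 CPM in the young library (0.879, 0.869 to 0.889), and in neutrophils to 987 and 1079 CPM (0.915, 0.886 to 0.945). Its 37 members spread on both sides of 1 in fibroblasts, 25 above and 12 below, where 11212 of 18277 features were above 1. In macrophages 32 of 37 were below 1, where 3741 of 12956 features were. These counts are scaled to all UMIs and were not recomputed under the scalings.

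Core members of the catalytic arm of complex I named here had ratios above 1 in fibroblasts. Ndufs3, a core subunit of the quinone-binding module, had 64.3 CPM in aged and 47.0 CPM in young fibroblasts, a ratio of 1.37 (1.31 to 1.43). Ndufv1, which binds NADH through its flavin, had 38.7 and 33.1 CPM in aged and young fibroblasts (1.17), and the iron-sulphur subunits Ndufv2 and Ndufs1 had ratios of 1.24 and 1.19. The quinone-module subunits Ndufs7 and Ndufs8 had ratios of 1.17 and 1.07. In macrophages Ndufs1 had the highest ratio of those named, with 32.6 CPM in the aged and 26.7 CPM in the young library (1.22, 1.06 to 1.41), while Ndufs8 had 39.6 and 52.9 CPM (0.749, 0.670 to 0.837). In neutrophils Ndufs3 had 10.1 CPM in the aged and 6.33 CPM in the young library (1.60, 1.10 to 2.30).

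Accessory subunits of complex I held both ends of the range. Ndufb8, of the membrane arm, had 100.5 CPM in aged and 72.4 CPM in young fibroblasts (1.39, 1.34 to 1.44), the highest ratio among members with 500 UMIs or more there. The lowest were also accessory subunits. Ndufb1 had 167.0 CPM in aged and 207.9 CPM in young fibroblasts (0.803, 0.784 to 0.822), Ndufb4 22.9 and 28.5 CPM (0.804) and Ndufa3 151.0 and 184.7 CPM (0.818). All 3 were lower in aged macrophages too, where Ndufa3 had 157 CPM in the aged and 223 CPM in the young library (0.706, 0.668 to 0.746) and Ndufv3 124 and 173 CPM (0.720). Ndufa8 had 74.8 and 57.9 CPM in aged and young fibroblasts (1.29) and 77.6 and 69.3 CPM in aged and young macrophages (1.12, 1.03 to 1.22, and below 1 with either multiplier). Ndufa4, named as a complex I gene but since placed with complex IV, had ratios of 1.17 in fibroblasts and 1.08 in macrophages, the second also below 1 with either multiplier. In neutrophils Ndufb5 had 7.68 CPM in the aged and 15.2 CPM in the young library (0.506, 0.351 to 0.713) and Ndufa11 10.9 and 19.6 CPM (0.555, 0.409 to 0.743). The low ratios in neutrophils rest on few UMIs, as their wide intervals show.

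Complex II, which feeds electrons from succinate and is also the citric acid cycle enzyme, summed to 208 CPM in aged and 173 CPM in young fibroblasts (1.20, 1.17 to 1.23). It was the complex with the highest ratio in each of the 3 gates, with 0.984 (0.939 to 1.030) in macrophages and 1.15 (1.03 to 1.29) in neutrophils, although the neutrophil value turned to 0.973 under TMM and 0.987 under median-of-ratios scaling. Sdha, the flavoprotein that oxidises succinate, had 36.5 and 31.5 CPM in aged and young fibroblasts (1.16), 64.8 and 52.3 CPM in aged and young macrophages (1.24, 1.12 to 1.37) and 24.9 and 16.6 CPM in aged and young neutrophils (1.498, 1.19 to 1.88). Sdha was thus higher in the aged library in all 3 gates. Sdhb, the iron-sulphur subunit, had 70.8 CPM in aged and 56.2 CPM in young fibroblasts (1.26), but ratios of 0.951 in macrophages and 0.806 in neutrophils. The membrane anchor Sdhd had 29.6 CPM in aged and 20.01 CPM in young neutrophils (1.48, 1.20 to 1.82) and 43.9 and 51.9 CPM in aged and young macrophages (0.847). The other anchor, Sdhc, had ratios of 1.24 in fibroblasts and 0.936 in macrophages.

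Complex III, which hands electrons to cytochrome c, summed to 1136 CPM in aged and 1099 CPM in young fibroblasts (1.033, 1.023 to 1.043, and below 1 under both scalings, 0.970 and 0.976), and to 1314 and 1545 CPM in aged and young macrophages (0.851, 0.834 to 0.868). Its core proteins Uqcrc1 and Uqcrc2 had ratios of 1.14 and 1.25 in fibroblasts, and Uqcrfs1, the Rieske iron-sulphur protein, 1.22. The hinge protein Uqcrh stood below 1, with 269 CPM in aged and 293 CPM in young fibroblasts (0.918). Uqcrc2 was the sole member of the complex above 1 in macrophages (54.9 and 50.4 CPM in aged and young, 1.09, 0.980 to 1.209, and below 1 with either multiplier). In neutrophils the small subunit Uqcrb had 30.9 and 46.3 CPM in aged and young cells (0.668), while Uqcrq, another small subunit, had 119 and 97.9 CPM (1.21, 1.10 to 1.34).

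Complex IV, cytochrome c oxidase, summed to 2725 CPM in aged and 2698 CPM in young fibroblasts (1.010, 1.004 to 1.016, and 0.948 and 0.954 under the scalings) and had the lowest macrophage ratio of the 5 complexes, with 3197 CPM in the aged and 3852 CPM in the young library (0.830, 0.820 to 0.841). Its matrix-side subunits Cox5a and Cox5b had 146 and 170 CPM in aged and 123 and 134 CPM in young fibroblasts, which are ratios of 1.19 and 1.27. Cox6c had 390 CPM in aged and 439 CPM in young fibroblasts (0.889) and 388 and 492 CPM in aged and young macrophages (0.789, 0.761 to 0.817). Cox7b had 35.8 CPM in aged and 54.5 CPM in young neutrophils (0.656, 0.555 to 0.772), 225 and 309 CPM in aged and young macrophages (0.729), and a ratio of 1.01 in fibroblasts. Cox7c had 602 CPM in aged and 699 CPM in young macrophages (0.861). Cox7a2l, a supercomplex assembly factor that the symbol pattern also takes in, had ratios of 0.961 in fibroblasts and 0.884 in macrophages.

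Complex V, the ATP synthase, summed to 3538 CPM in aged and 3395 CPM in young fibroblasts (1.042, 1.036 to 1.048, and 0.978 and 0.984 under the scalings), 3816 and 4473 CPM in aged and young macrophages (0.853, 0.843 to 0.863), and 971 and 1171 CPM in aged and young neutrophils (0.829, 0.803 to 0.856). In its catalytic head, Atp5a1 (alpha) and Atp5b (beta) each had a ratio of 1.20 in fibroblasts, Atp5c1 (gamma) 1.10 and Atp5d (delta) 1.15. Atp5e, the epsilon subunit of the same head, went the other way, with 384 CPM in aged and 470 CPM in young fibroblasts (0.818, 0.805 to 0.831) and 423 and 558 CPM in aged and young macrophages (0.757). The proton-carrying ring of subunit c is encoded by 3 genes, whose ratios in fibroblasts were 1.22 (Atp5g1), 1.16 (Atp5g2) and 1.34 (Atp5g3). Atp5g3 had 139 CPM in aged and 123 CPM in young macrophages (1.13, 1.05 to 1.20), a direction that turned under TMM (0.992) and median-of-ratios scaling (0.983), while Atp5g1 and Atp5g2 were below 1 there (0.850 and 0.941). The supernumerary membrane subunits Atp5k (e) and Atp5l (g) were below 1 in fibroblasts (0.886 and 0.904), in macrophages (0.729 and 0.817) and in neutrophils (0.691 and 0.766).

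In fibroblasts, macrophages and neutrophils the median ratio of the members was higher in longer transcripts. Using the median length of each gene's annotated transcripts (GENCODE M21) and members with at least 20 UMIs, the 30 members under 600 nt had a median ratio of 0.994, the 23 of 600 nt up to 1000 nt a median of 1.11, and the 25 of 1000 nt or more a median of 1.18, with 22 of these 25 above 1. In macrophages the medians were 0.839, 0.888 and 0.928 in the same order, and in neutrophils 0.807, 0.876 and 0.9001. Other features with at least 500 UMIs had medians of 0.996, 1.11 and 1.06 in fibroblasts, with 5969 of 9212 above 1 at 1000 nt or more. Their medians were 0.872, 0.989 and 1.16 in macrophages, and 0.798, 0.977 and 1.16 in neutrophils. A rise with length was thus not particular to the members in macrophages and neutrophils. In fibroblasts other features lay near the members below 1000 nt and lower at 1000 nt or more. Spearman's rho between length and ratio across genes was 0.506 in fibroblasts (78 members) and 0.446 in macrophages (78 members). In neutrophils rho was 0.167 (76 members). Genes of 1 library pair share its depth and are not independent replicates, so rho is a description.

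The 13 mt- genes were each below 1 in fibroblasts. The complex I genes mt-Nd1, mt-Nd2, mt-Nd4, mt-Nd4l, mt-Nd5 and mt-Nd6 had ratios of 0.941, 0.812, 0.807, 0.6999, 0.866 and 0.843, and mt-Cytb of complex III 0.827. The complex IV core genes mt-Co1, mt-Co2 and mt-Co3 had 0.820, 0.870 and 0.774, and mt-Atp6 of complex V 0.834. mt-Co1 had 2789 CPM in aged and 3403 CPM in young fibroblasts and 3321 and 3813 CPM in aged and young macrophages. In macrophages 12 of 13 were below 1, and mt-Nd6 had 19.0 and 15.6 CPM in aged and young cells (1.22, 1.01 to 1.47).

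The 3 shortest mt- genes had the lowest mt- ratios in fibroblasts. The 4 mt- genes under 600 nt had a median ratio of 0.673 in fibroblasts, against 0.852 for the 4 of 600 nt up to 1000 nt and 0.820 for the 5 of 1000 nt or more. mt-Atp8, the shortest, had 193 CPM in aged and 324 CPM in young fibroblasts (0.596), and mt-Nd3 had 117 and 180 CPM (0.647). Across cytosolic ribosomal protein genes rho was 0.451 in fibroblasts. Across 10051 other features with at least 500 UMIs it was -0.106 in fibroblasts, and across 5669 in macrophages 0.425. Members with more UMIs had lower ratios in fibroblasts and macrophages, with a rho between UMIs and ratio of -0.388 in fibroblasts, -0.433 in macrophages and -0.0416 in neutrophils. The part of length, level or RNA quality in these ratios was not tested.

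**Figure D3:**
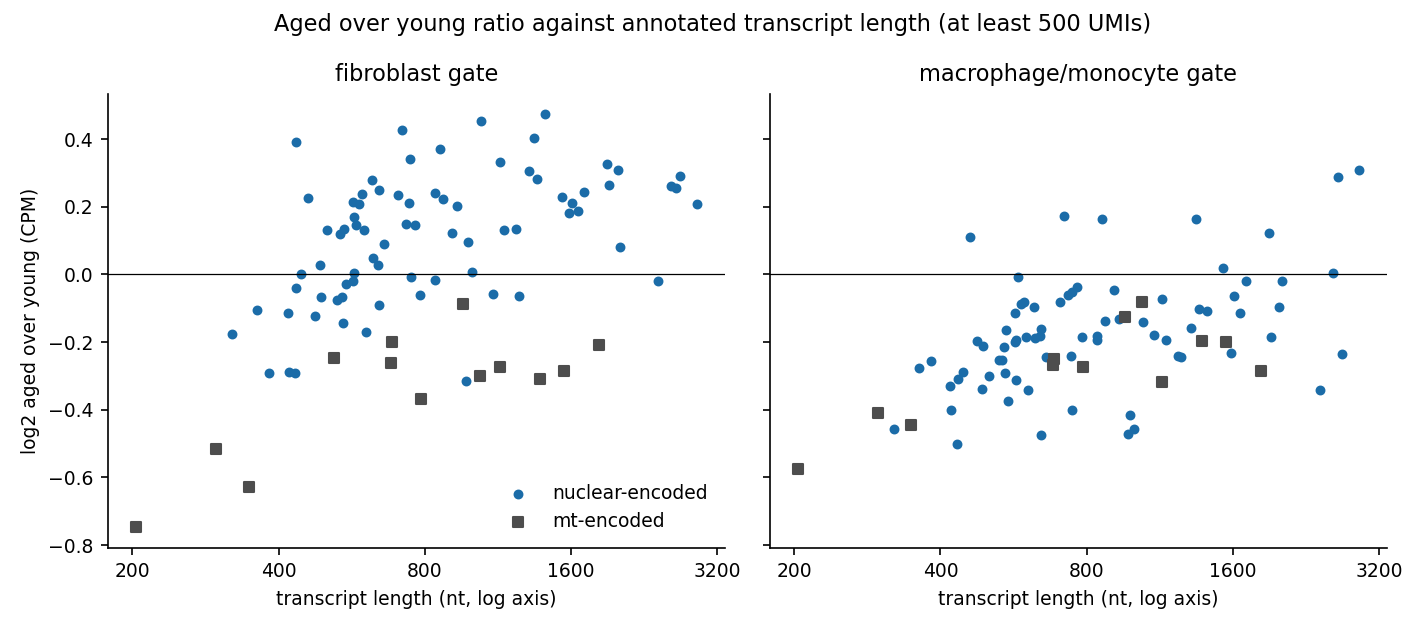
Log2 ratio of aged over young CPM against annotated transcript length (nt, log axis) for nuclear-encoded (circles) and mt- genes (squares) with at least 500 UMIs, in fibroblasts and macrophages/monocytes. The nuclear-encoded points tend to lie higher at longer lengths, with wide scatter, and the 3 shortest mt- genes lie lowest in fibroblasts.

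Neutrophils differed more from the other gates than the ages did from each other. They had 0.304 of the fibroblast level in the aged library and 0.355 in the young one, and 0.270 and 0.260 of the macrophage level. The macrophage level was above the fibroblast level in both libraries, 1.13-fold in the aged (1.12 to 1.13) and 1.36-fold in the young (1.35 to 1.37), while the mt- genes were near equal in these gates (1.03 and 0.991). Both libraries thus had the order macrophage, fibroblast, neutrophil, and the gap of the first pair was smaller in the aged library.

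Between neutrophils and macrophages, 77 of 78 members were lower in neutrophils by 1.5-fold in both libraries, where 56.7% of features were, and none was higher, where 15.1% were. Sdhd was the exception, at 0.674 in the aged and 0.386 in the young library. The widest range over the 3 gates belonged to Ndufc2, an accessory subunit of complex I, with mean levels of 130 CPM in fibroblasts, 207 CPM in macrophages and 15.98 CPM in neutrophils. Ndufa5, another accessory subunit, followed with 72.8, 70.2 and 6.17 CPM, and then Atp5g2 with 256, 230 and 27.7 CPM. Cox8a lay at the other end, with 281 and 287 CPM in aged and young neutrophils, 437 and 566 CPM in aged and young macrophages, and 364 and 371 CPM in aged and young fibroblasts. The mt- genes stood at 0.403 of the macrophage level in neutrophils of the aged and 0.408 of the young library. Cytosolic ribosomal protein genes stood lower still, at 0.233 and 0.243. Aged neutrophils had a median of 4488 UMIs per cell and young neutrophils 5782, against 13792 and 16908.5 in aged and young macrophages.

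Between macrophages and fibroblasts, 10 of 78 members were higher in macrophages by 1.5-fold in both libraries, where 24.2% of features were, and 1 was lower, where 34.2% were. The 10 held 6 accessory subunits of complex I (Ndufa6, Ndufb1, Ndufb3, Ndufb7, Ndufb8 and Ndufc2), Sdha, Cox5a, Cox7a1 and Atp5mpl. Ndufb1 was 1.88-fold higher in the aged and 1.90-fold in the young library, Cox5a 1.87-fold and 2.48-fold, and Sdha 1.78-fold and 1.66-fold. The member that was lower was Cox6b2, known as the testis form of subunit 6b, at 0.227 in the aged and 0.526 in the young library.

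**Figure D4:**
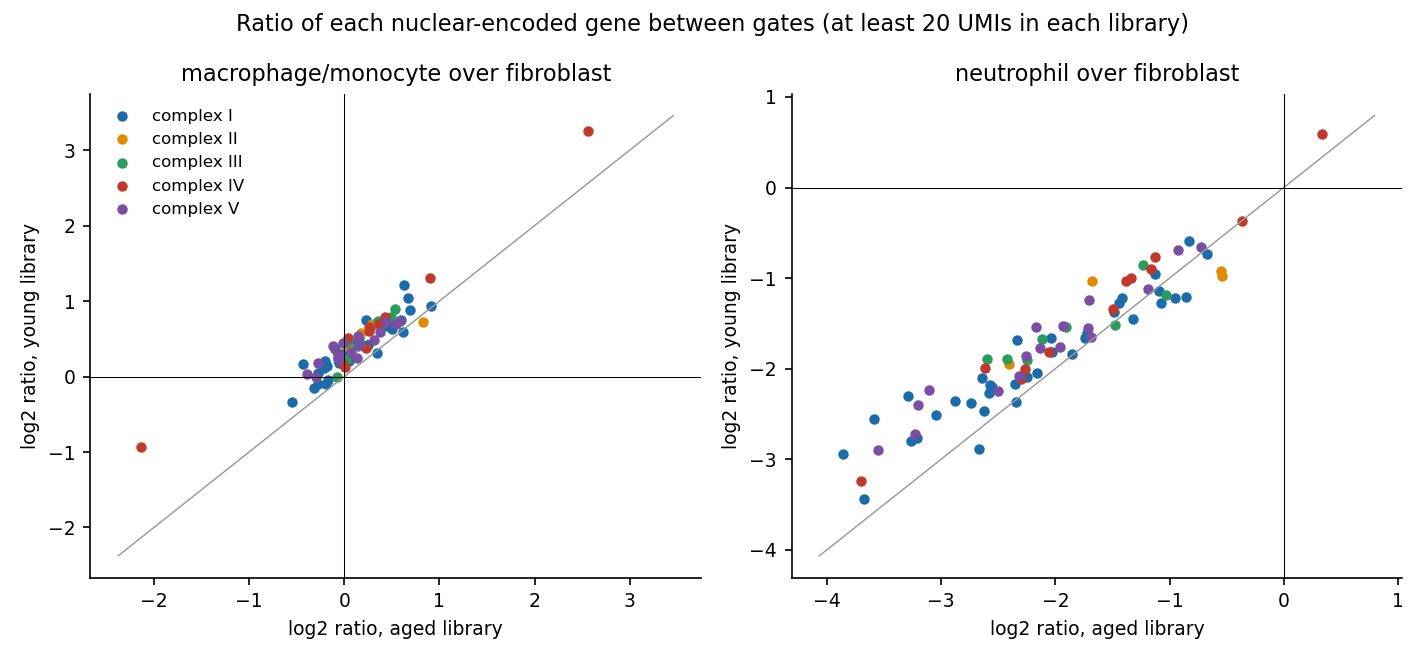
Log2 ratio of each nuclear-encoded gene between gates in the aged library (x axis) and the young library (y axis), macrophage/monocyte over fibroblast (left) and neutrophil over fibroblast (right), with the line of equality. Most points lie above the line, and nearly all are below 0 on both axes in the neutrophil panel.

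In the fibroblast gate, cells with cycling markers had a higher nuclear-encoded level, while their summed mt- level was close to that of the other cells. Fibroblasts with at least 2 of 6 cycling markers (222 aged, 120 young) had 1.33 times the level of the other fibroblasts in the aged library and 1.54 times in the young one (1.53 to 1.55). The mt- genes of the same cells had a ratio between 0.995 and 1.005 in the aged library and of 0.979 in the young one, and the cytosolic ribosomal protein genes at 1.10 and 1.22. By complex, the mt- genes of complex I (1.04 and 1.06), III (1.09 and 1.09) and V (1.06 and 1.04) were higher in cycling cells of the aged and young library, and those of complex IV lower (0.947 and 0.902). All 5 nuclear-encoded complexes were higher in cycling cells, from 1.31-fold (complex I) to 1.42-fold (complex II) in the aged and from 1.52-fold (complexes I and IV) to 1.76-fold (complex II) in the young library. Aged cycling fibroblasts had 0.887 (0.881 to 0.893) of the level of young cycling fibroblasts, and non-cycling fibroblasts had a ratio of 1.03 (1.02 to 1.03). Cycling cells were deeper, with medians of 74048 UMIs in the aged and 64546 UMIs in the young library, against 46964 and 41025 in the other fibroblasts.

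Macrophage-gated cells with at least 3 of 5 osteoclast markers (12 aged, 16 young) had 1.72 times the nuclear-encoded level of macrophages with C1q genes in the aged library (1.68 to 1.76) and 1.98 times in the young one (1.95 to 2.01). Complex II differed most, at 2.46-fold and 2.58-fold, and the mt- genes stood at 1.02 and 1.25. Cytosolic ribosomal protein genes stood at 1.58 and 1.48, and these cells were deeper, with medians of 39478 UMIs in the aged and 36498 UMIs in the young library, against 14185 and 17405 in macrophages with C1q genes. The part of depth was not tested. Macrophages with C1q genes (767 aged, 489 young) had an aged over young ratio of 0.887, and those without (214 and 133) 0.878. Both held the direction of the whole gate, whose ratio was lower than either. The whole gate also holds the cells with osteoclast markers, with 429159 of its 15638963 aged UMIs and 673836 of its 12241248 young UMIs. The part of these cells in its ratio was not tested. The 24 adipocyte-gated cells, all from the young library, had 2.19 times the nuclear-encoded level of young fibroblasts (2.16 to 2.21) and 2.98 times their mt- level (2.95 to 3.01). Their 6 adipocyte markers summed to 76792 CPM, and fibroblast markers to 1507 CPM. The mt- genes of complex I were 3.89-fold higher in these cells.

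The restricted forms differed in which gates held them. Cox8b had 15 UMIs in the aged and 235 UMIs in the young library over all cells. Of the young UMIs, 168 came from adipocyte-gated cells, where 16 of 24 cells (66.7%, median 42118 UMIs per cell) had one, at 161 CPM (138 to 187), and 29 came from the 5 muscle-gated cells (133 CPM). In young fibroblasts, of similar depth (median 42089 UMIs), 0.509% of cells had a Cox8b UMI, and in aged fibroblasts (median 49794) 0.204%. Fibroblasts held 5 Cox8b UMIs in the aged and 16 in the young library, macrophages 2 and 3, and neutrophils none in either, which allows up to 0.691 CPM in aged and 0.311 CPM in young neutrophils. The aged library had no adipocyte-gated cell and 2 muscle-gated cells, so the call of Cox8b over all cells compares libraries that differ in these cell types. Cox8a had 1227 CPM in the young adipocyte-gated cells.

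Cox7a1 had its highest level among the 3 large gates in macrophages, with 14.9 CPM (13.1 to 16.9) in the aged and 13.3 CPM (11.4 to 15.5) in the young library. Of the cells there, 17.8% of aged and 16.6% of young macrophages had a Cox7a1 UMI, and no single cell held more than 5. Fibroblasts had 2.52 CPM in the aged and 1.40 CPM in the young library (1.80, 1.41 to 2.32), with a UMI in 9.05% and 4.201% of cells, although fibroblasts were deeper than macrophages. Neutrophils had 3.18 CPM in the aged and 2.11 CPM in the young library (1.51, 0.765 to 2.908). The macrophage level was 5.91-fold the fibroblast level in the aged and 9.52-fold in the young library. Cox7a2 had 249 CPM in aged and 295 CPM in young macrophages. Unlike Cox8b, Cox7a1 had no UMI in the 24 young adipocyte-gated cells, which allows up to 3.54 CPM there.

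Cox6a2, the form of heart and skeletal muscle, had 57 UMIs in the aged and 67 in the young library, of which 46 came from the 5 young muscle-gated cells (211 CPM, 154 to 281). Macrophages held 30 and 16 of its UMIs in the aged and young library. Cox6b2 had 7.33 CPM in aged and 5.596 CPM in young fibroblasts (1.31, 1.15 to 1.49) and 1.66 and 2.94 CPM in aged and young macrophages (0.565, 0.328 to 0.963). The last ratio rests on 26 aged and 36 young UMIs. In 3 aged and 16 young mural cells Cox6b2 had 42.4 and 16.2 CPM, from 7 and 8 UMIs. Cox6b1, its widely expressed form, had 269 and 264 CPM in aged and young fibroblasts and 362 and 458 CPM in aged and young macrophages (0.791). Cox6a1 had 308 and 274 CPM in aged and young fibroblasts (1.12) and 295 and 337 CPM in aged and young macrophages (0.875). The 4 widely expressed forms were thus lower in aged than in young macrophages.

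**Figure D5:**
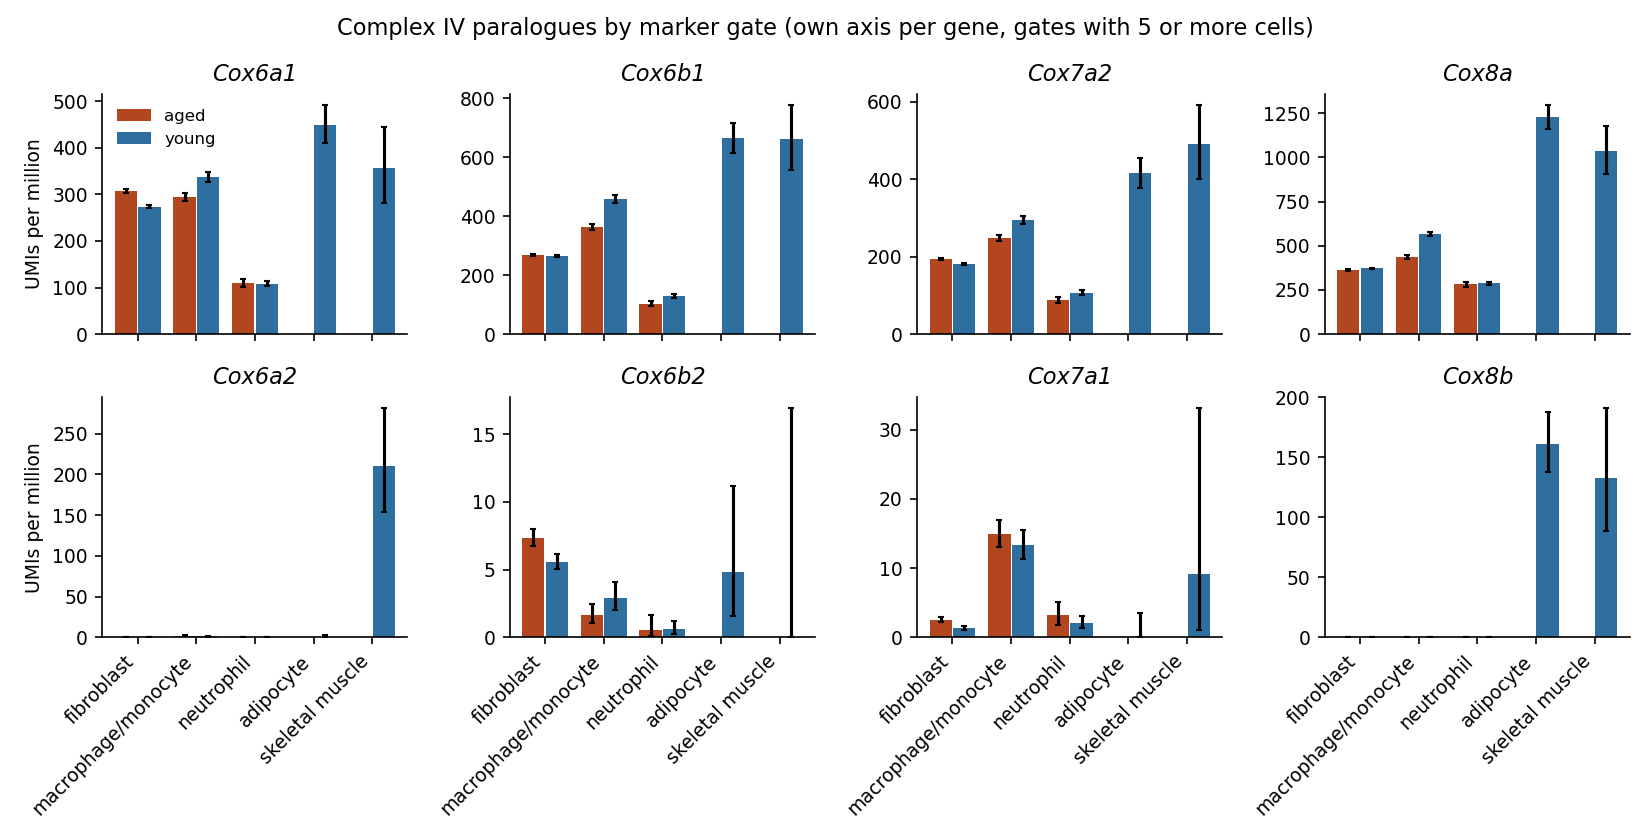
Level in CPM of 4 widely expressed complex IV genes (top) and their restricted paralogues (bottom) in marker gates with 5 or more cells, aged left of young, with exact Poisson 95% intervals and an own axis per gene. In the young library Cox8b rises from the axis in the adipocyte and muscle gates, and Cox6a2 in the muscle gate. Cox7a1 is highest among the large gates in macrophages.

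Other mitochondrial gene lists were measured in the same gates, and mainly their fibroblast and macrophage values are given here. A list of respiratory chain genes that the symbol pattern leaves out, not all of them structural subunits, gave 7 genes. Ndufa4l2, a hypoxia-induced relative of Ndufa4, had 154 CPM in aged and 104 CPM in young fibroblasts (1.49, 1.44 to 1.53). Cox4i1, the main form of subunit 4, had 463 and 445 CPM in aged and young fibroblasts (1.04) and 588 and 644 CPM in aged and young macrophages (0.914). Cyc1, the cytochrome of complex III, had ratios of 1.22 in fibroblasts and 0.834 in macrophages, and Ndufab1, the acyl carrier subunit of complex I, 1.32 and 1.05. All 7 were above 1 in fibroblasts, where 11212 of 18277 features were, and 4 of 7 in macrophages, where 9215 of 12956 were. None passed 1.5-fold in either.

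Assembly factors of the complexes had a median log2 ratio of 0.15 in fibroblasts (36 of 45 above 1, none past 1.5-fold) and 0.09 in macrophages (29 of 44 above 1, with 2 higher and 1 lower by 1.5-fold, where 16.4% and 6.92% of all features were). Citric acid cycle genes had medians of 0.18 (11 of 13 above 1) and 0.08 (9 of 13) in fibroblasts and macrophages. Mitochondrial ribosomal protein genes had 0.22 (69 of 78) and 0.03 (48 of 78). None of either list passed 1.5-fold in these gates. The macrophage medians of these 3 lists would be below 0 with either multiplier. They were below the median of 0.21 over all macrophage features, of which 9215 of 12956 were above 1. In fibroblasts the median over all features was 0.09, with 11212 of 18277 above 1. In neutrophils the medians were 0.27 (assembly factors), 0.02 (citric acid cycle) and 0.13 (mitochondrial ribosome), against 0.19 over all features. There 6 of 34 assembly factors and 11 of 73 mitochondrial ribosomal protein genes were higher by 1.5-fold, where 21.6% of features were. Lower by 1.5-fold were 6 of the 73 and 2 of 13 citric acid cycle genes, where 9.92% of features were. The ends of the lists in fibroblasts were Pet100 (0.809) and Cox18 (1.38), both complex IV factors, Idh3b (0.980) and Suclg1 (1.31) of the citric acid cycle, and Mrpl38 (0.862) and Mrpl18 (1.40). The genes of mitochondrial biogenesis and mtDNA transcription had a median of 0.51 in macrophages, with 12 of 13 above 1, 4 higher by 1.5-fold, where 16.4% of features were, and 1 lower, where 6.92% were. The 4 were Tfb1m, Tfb2m, Tfam and Pprc1, the last a coactivator of the PGC-1 family. Pprc1 had 19.4 CPM in aged and 10.6 CPM in young macrophages (1.83, 1.49 to 2.27), and Tfam, which packages mtDNA, 10.4 and 6.62 CPM (1.58, 1.20 to 2.08). With either multiplier Tfam and Tfb2m, at 1.58 and 1.57, would no longer pass 1.5-fold. Ppargc1b, another PGC-1 coactivator, was the lower one, with 4.86 and 7.43 CPM in aged and young macrophages (0.654, 0.476 to 0.896). In fibroblasts the median of this list was 0.12, Tfam had 15.5 and 18.1 CPM in aged and young cells (0.857), and Ppargc1a and Ppargc1b were lower by 1.5-fold (0.622 and 0.631), where 8.19% of features were. Cytosolic ribosomal protein genes had a median of -0.21 in macrophages, with 4 of 82 above 1, near the median of -0.18 of the respiratory chain members, and -0.02 in fibroblasts.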

How the data were processed

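Each library was deposited as 1 matrix of unnormalized UMI counts. Per the file headers the matrices come from Cell Ranger 8.0.1. Cell Ranger 9.0, STAR, Seurat 4 and the builds GRCm38/mm10 are listed per the submitters' processing notes, so the Cell Ranger versions differ. Cells with at least 500 UMIs, 200 genes and under 15% mt- UMIs were kept. A cell was gated to the marker list, of 16, with the largest share of genes at 2 or more UMIs, if that share was at least 30% and led by 10 percentage points. This depends on depth. The thresholds were chosen after seeing the data, and no doublet caller was run.

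UMIs were summed per library and gate and scaled to CPM (Python 3.11.15, numpy 2.4.6, pandas 2.3.3). Levels carry exact Poisson intervals and ratios exact conditional binomial intervals (scipy 1.17.1), both 95%. TMM scaling used edgeR 4.0.16 in R 4.3.3. The scripts were tested on simulated data. Reads that a member shares with a near-identical pseudogene cannot be told apart here. Transcript lengths are the medians per gene in GENCODE M21, with 81 of 82 members matched. Of the members, 69 matched the RefSeq promoter table by symbol.

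Members named are the 3 highest and 3 lowest ratios per large gate with at least 50 UMIs, the highest and lowest CPM per complex, the 3 widest ranges over gates, the Cox6, Cox7 and Cox8 paralogues, the mt- genes and the ends of the pathway lists. Others named for their role were chosen after their values were seen. The values of 1 member are not reported here. The members and lists were chosen with earlier results of these data known.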

Additional observations from a re-analysis of the deposited data

Results flagged for a closer look

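The aged over young ratios of fibroblasts and macrophages/monocytes lay on opposite sides of 1 when scaled to all UMIs. The difference of their log2 ratios, fibroblast minus macrophage, was 0.272 for the sum of the 82 genes, 0.243 for complex I, 0.284 for complex II, 0.280 for complex III, 0.283 for complex IV and 0.288 for complex V. The macrophage interval of complex II, 0.939 to 1.030, holds 1. The difference was not tested, since each gate has 1 library per age. The fibroblast ratios of complexes I, III, IV and V turned below 1 under TMM and median-of-ratios scaling, while complex II was above 1 there under both.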

How the results depend on the processing

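Scaling decided the direction of ratios near 1. The all-cell nuclear-encoded ratio of 0.997 was 0.922 under TMM, 0.929 under median of ratios and 0.993 with a total free of mt- and ribosomal protein genes. It turned to 1.017 as a mean over cells and 1.013 without the 4% of cells with the most UMIs. Without cycling-marker cells (chosen after seeing the data) it was 1.008. With 5 genes outside the pattern added (Cox4i1, Cox4i2, Ndufab1, Ndufa4l2 and Cyc1) and Cox7a2l left out it was 1.004. The fibroblast ratio of 1.035 turned to 0.972 under TMM and 0.978 under median of ratios. It was 1.029 (other total), 1.060 (without the top 4%), 1.040 (stricter gate), 1.027 (without cycling cells) and 1.043 (the same 5 genes added and Cox7a2l left out). By complex in fibroblasts, TMM and median of ratios gave 0.977 and 0.982 (I), 0.970 and 0.976 (III), 0.948 and 0.954 (IV) and 0.978 and 0.984 (V). The macrophage ratio of 0.857 was 0.755 (TMM), 0.748 (median of ratios), 0.841 (other total), 0.882 (mean over cells), 0.864 (without the top 4%) and 0.874 (stricter gate). Atp5g3 in macrophages turned to 0.992 and 0.983. The neutrophil ratio of 0.888 was 0.751 and 0.763 under the scalings, complex II there 0.973 and 0.987, and as a mean over cells, an alternative added after seeing the data, complex III 1.009 and mt- genes 1.051. The all-cell mt- ratio of 0.834 was 0.772, 0.777, 0.831 (other total), 0.825 (no mt- filter), 0.883 (mean over cells) and 0.832 (without cycling cells).

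Members past 1.5-fold in fibroblasts numbered 2, and 4 with at least 1 UMI in each library as the sole filter and 1 at 2-fold. In macrophages they numbered 1, and 7 (TMM), 9 (median of ratios), 0 (without the top 4%), 2 (1 UMI) and 0 (2-fold). In neutrophils they numbered 5, and 20, 19, 11 (mean over cells), 10 (stricter gate) and 0 (2-fold). The shares of all features under these alternatives were not computed. The cause was not tested.

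Of the other values recomputed for single complexes and genes, 50 moved beyond the counting interval without turning and 26 did not. No paired analysis was possible because there was 1 library per age, which also leaves no replicate to take out. Of the 3 large gates, depth limits the neutrophils most, where 39 of 77 members had 500 UMIs or more.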
